A study of Mus musculus with 7 samples.

Results

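The genes described here encode the mitochondrial machinery that burns pyruvate and fatty acids, together with the cytosolic enzyme Mdh1. They were grouped as 14 enzymes of the tricarboxylic acid (TCA) cycle, Mdh1 included, and the 4 subunits of succinate dehydrogenase. The other groups were 7 genes of pyruvate entry and 17 genes of fatty acid oxidation. All were taken by name, each represented by its probe set of highest mean signal. Of these 42 genes, 41 had a probe set assigned to a single gene, among 22180 genes so measured; the pyruvate carrier gene Mpc2 had none in the annotation used and was not analysed here. RNA of the gastric corpus, the acid-secreting part of the stomach, was measured on 1 single-channel array per sample. All mice, controls included, carried the Atp4b-DTR transgene, in which the promoter of the proton pump subunit gene Atp4b drives a diphtheria toxin receptor in parietal cells, and were 8 to 12 weeks old. Toxin was given at 225 ng per mouse on 3 days in a row and the corpus was taken 24, 36, 48 or 72 h after the last dose; the control received saline. There was 1 array each for the control, 24 h and 36 h and 2 arrays each for 48 h and 72 h, 7 in all. The controls were littermates where possible, and whether a sample pools animals is not stated.

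The TCA cycle lies in the mitochondrial matrix and strips electrons from acetyl groups, which reach it from pyruvate through the pyruvate dehydrogenase complex or from fatty acids through beta-oxidation. In beta-oxidation a fatty acid enters the mitochondrion as a carnitine ester and is then shortened in repeated rounds of dehydrogenation, hydration, dehydrogenation and thiolysis. The parietal cell is packed with mitochondria, which power its proton pump, and the other cells of the corpus (chief, mucous neck and surface pit cells, smooth muscle, blood and vessel cells) carry the same enzymes at their own levels. In whole tissue, fewer cells of a type and less RNA per cell cannot be told apart.

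Promoters of 4 members are shown, for sequences that regulators of mitochondrial genes bind. The motif AAGGTCA, with its reverse complement TGACCTT, is the core site of the estrogen-related receptors (ERR), nuclear receptors that drive mitochondrial energy genes, and CCGGAAG, with its reverse complement CTTCCGG, is a core site of ETS factors such as GABP. A match to either motif can overlap a match to the other at the shared letters AAG. Both strands of each gene's RefSeq window on GRCm38.p6, from 250 bases before to 50 bases after the start, were searched, and 37 of the 41 members had a window. AAGGTCA stood in 3 of these 37 (8.11%), against 4.67% of the 16990 array genes with a window. These were Acadm, Ogdh and Sdhd, which differ in their values below: Acadm was far from the control at 48 h, Ogdh was close to it and Sdhd was at it. CCGGAAG stood in 8 of 37 (21.6%), against 12.7% of the array genes: Cpt2, Dlst, Idh3b, Idh3g, Mpc1, Sdhb, Sdhd and Slc25a20. Mpc1 is shown as the member whose brightest probe set was furthest from the control at 24 h and 48 h. Capitals mark the TGACCTT match in the first 3 windows and the CCGGAAG match in the last (the CCGGAAG match of Sdhd is not marked), at -249, -5, 36 and -225 bases from the start. The windows are chr3:153944594-153944893 on the minus strand, chr11:6291920-6292219 on the plus strand, chr9:50603800-50604099 on the minus strand and chr17:8283537-8283836 on the plus strand, each written 5′ to 3′ along the gene. A match is a run of letters in this window and was not tested as a binding site.
Acadm: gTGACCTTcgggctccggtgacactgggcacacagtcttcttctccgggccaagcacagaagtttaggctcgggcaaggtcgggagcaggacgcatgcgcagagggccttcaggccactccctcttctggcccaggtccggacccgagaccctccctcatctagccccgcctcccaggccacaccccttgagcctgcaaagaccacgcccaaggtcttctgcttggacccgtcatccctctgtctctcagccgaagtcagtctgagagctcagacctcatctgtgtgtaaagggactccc
Ogdh: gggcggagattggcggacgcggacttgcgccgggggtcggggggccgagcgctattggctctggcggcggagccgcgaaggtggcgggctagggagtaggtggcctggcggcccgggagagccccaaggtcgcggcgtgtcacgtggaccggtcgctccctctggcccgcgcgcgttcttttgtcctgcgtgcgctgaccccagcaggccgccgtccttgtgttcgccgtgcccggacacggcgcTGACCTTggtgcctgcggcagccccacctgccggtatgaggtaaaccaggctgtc
Sdhd: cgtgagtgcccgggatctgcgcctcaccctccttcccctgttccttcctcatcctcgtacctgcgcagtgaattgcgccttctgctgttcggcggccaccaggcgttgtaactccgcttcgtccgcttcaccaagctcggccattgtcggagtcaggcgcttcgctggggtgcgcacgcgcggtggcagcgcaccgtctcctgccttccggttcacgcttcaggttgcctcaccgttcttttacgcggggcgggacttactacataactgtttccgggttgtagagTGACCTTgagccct
Mpc1: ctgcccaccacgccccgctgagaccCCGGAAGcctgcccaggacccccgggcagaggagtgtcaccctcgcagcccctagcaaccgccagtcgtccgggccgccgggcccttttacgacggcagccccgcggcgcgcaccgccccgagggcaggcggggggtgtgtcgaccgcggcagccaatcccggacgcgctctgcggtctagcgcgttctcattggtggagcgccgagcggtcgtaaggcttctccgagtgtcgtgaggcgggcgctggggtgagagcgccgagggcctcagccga

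Differences are on the log2 scale of the deposited signal, where -1 is a 2-fold lower signal, and ± marks the standard error of the limma fit, which takes its spread from the 48 h and 72 h pairs and assumes that the lone control varied like them. With a Benjamini-Hochberg adjusted p under 0.05 over all genes, limma called 0 of 22180 genes (0%), and so 0 members, at 48 h against the control, at 72 h against the control, at 72 h against 48 h, and in the slope over recovery time. At an unadjusted p under 0.05 the counts were 4375, 3978, 1569 and 1929 genes. Values and counts are therefore given as descriptions, and each comparison with the control rests on the same single array. Xist, the RNA that silences an X chromosome in female cells, had log2 values of 8.13 on the control and 9.17 at 24 h and of 2.70 to 3.27 on the other 5 arrays, and the Y-linked gene Eif2s3y showed the reverse, 3.81 and 3.40 against 7.79 to 8.39. Every comparison of a later array with the control or the 24 h array, and the slope over recovery, therefore also compares this pattern. The 24 h array against the control does not, nor do comparisons among the 36 h, 48 h and 72 h arrays. Atp4b, the gene whose promoter drives the receptor, differed from the control by -2.25 (24 h), -0.61 (36 h), -1.27 and -0.55 (48 h) and -0.28 and -0.02 (72 h).

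Most of the 41 genes were lower than on the control at every time, furthest at 24 h and nearest at 72 h. The median difference was -0.45 (24 h), -0.25 (36 h), -0.39 and -0.41 (48 h) and -0.19 and -0.09 (72 h), while the median of all genes was 0.00 on each array. At 24 h 39 members were lower, against 46.6% of all genes, and at 36 h 34 were, against 46.4%. Both arrays of 48 h were below the control for 36 members (34.4% of all genes) and both arrays of 72 h for 25 (33.9%), while both 72 h arrays were above it for 12 (34.2%). All 6 toxin arrays were below the control for 23 members, against 22.6% of all genes, and all 6 were above it for 1, Etfb, against 20.2%. The differences were mostly small. At least a 2-fold lower signal was seen at 24 h in 2 members, Mpc1 and Echs1, against 1.67% of all genes, and at 36 h in 0 members, against 1.61%.

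**Figure D1:**
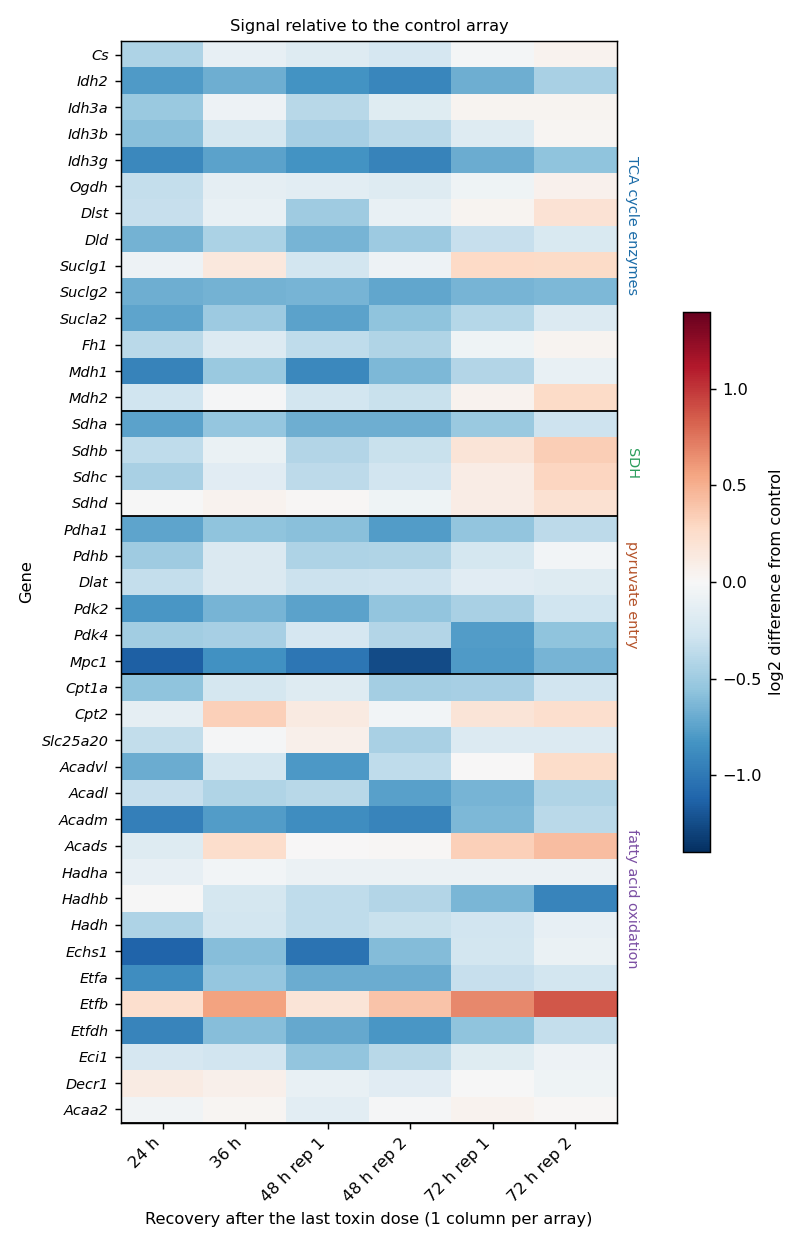
Heat map of the log2 difference from the control array for 41 genes (rows, grouped by pathway step) on the 6 toxin arrays (columns); blue is lower and red is higher. Blue prevails at 24 h and 48 h (39 members lower at 24 h, 36 on both arrays of 48 h), the 72 h columns are paler, and Etfb is red throughout.

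On these arrays the course was not a steady return, though the 24 h and 36 h times rest on 1 array each. The 36 h array lay above the 24 h array, which differs from it in the Xist pattern, for 37 members (44.7% of all genes), and both 48 h arrays lay below the 36 h array again for 34 (29.5%), or for 25 with quantile normalisation repeated. Both 72 h arrays then lay above both 48 h arrays for 34 members, against 16.7% of all genes, and below them for 2, Pdk4 and Hadhb, against 13.0%. Parietal cell markers took the same order of arrays in part: the median of 12 markers was -1.53 (24 h), -0.64 (36 h), -1.26 and -0.78 (48 h) and -0.64 and -0.20 (72 h). By summed linear signal the pair of 48 h was further apart in those markers, 53.3% and 69.8% of the control, than in the members. The members' sums were 72.0% and 71.5%, but single members differed within the pair in both directions. Acadvl was at -0.80 and -0.35 and Echs1 at -1.03 and -0.61, while Slc25a20 was at 0.07 and -0.45 and Acadl at -0.39 and -0.76. Quantile normalisation applied again moved genes with a mean log2 signal of 9 or more, 24 of the members among them, up by a median of 0.07 to 0.16; the members' medians were then -0.32, -0.17, -0.35, -0.23, -0.15 and -0.02, with 34, 30, 36, 32, 25 and 22 members lower.

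**Figure D2:**
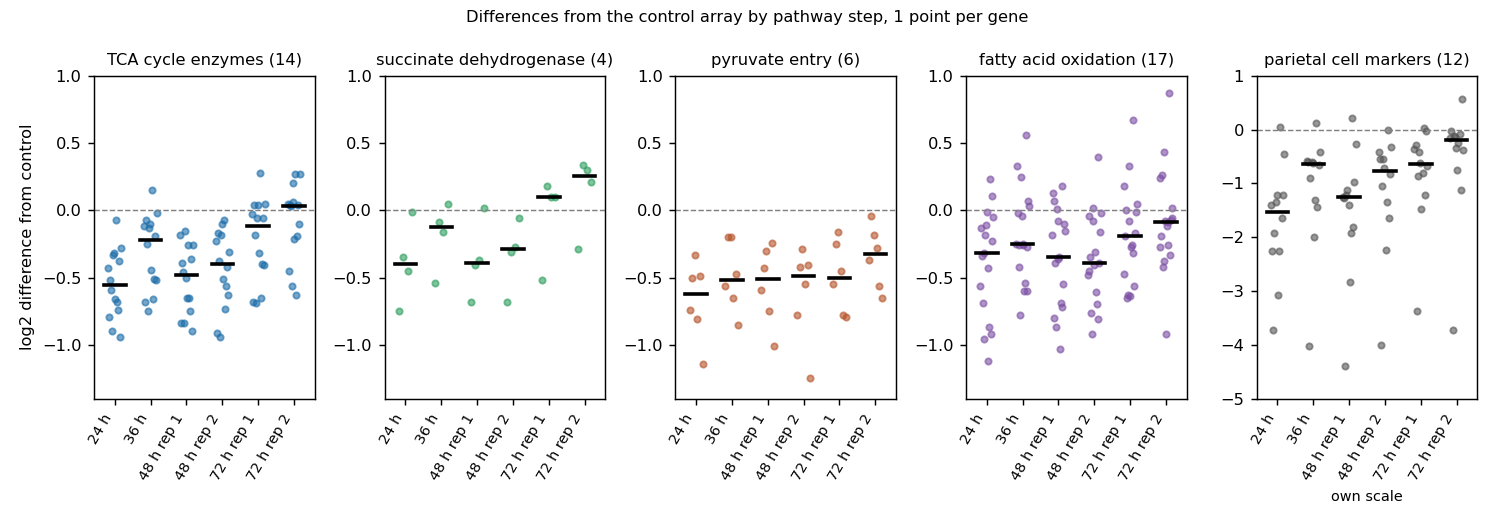
Log2 difference from the control for each gene (points) on each toxin array, by pathway step, with the median as a bar; the number of genes is in each panel title and the parietal marker panel has its own scale. Pyruvate entry stays lowest at 72 h, with medians of -0.50 and -0.33, while succinate dehydrogenase reaches 0.10 and 0.25.

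The 4 steps differed in how near to the control they came. For the TCA cycle enzymes the median was -0.55 (24 h), -0.22 (36 h), -0.48 and -0.40 (48 h) and -0.12 and 0.03 (72 h). Succinate dehydrogenase gave -0.40, -0.12, -0.39, -0.29, 0.10 and 0.25 on the same arrays, the highest of the 4 steps at 72 h. Pyruvate entry gave -0.62, -0.52, -0.51, -0.49, -0.50 and -0.33, the lowest of the 4 on every array. Fatty acid oxidation gave -0.32, -0.25, -0.35, -0.39, -0.19 and -0.09, with the widest spread among its genes. With quantile normalisation again each of these 24 medians kept its sign, but several moved by over 1.5 times. Fatty acid oxidation was then at -0.16 (24 h), -0.21 (second 48 h array) and -0.09 and -0.02 (72 h), and succinate dehydrogenase at -0.05 (36 h), -0.12 (second 48 h array) and 0.19 (first 72 h array). On the second 48 h array the TCA cycle enzymes were at -0.24 and pyruvate entry at -0.30, and on the second 72 h array the TCA cycle enzymes were at 0.09. No test compared the steps with each other.

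In the TCA cycle, all 14 enzyme genes were below the control at 24 h and on both 48 h arrays. These compare with 46.6% and 34.4% of all genes. After repeated quantile normalisation Suclg1 was not lower at 24 h. Idh3a, Dlst and Suclg1 were then not below the control on both 48 h arrays. At 48 h against the control 9 of the 14 had an unadjusted p under 0.05, all lower, against 11.6% of all genes lower at that threshold. Cs, citrate synthase, which joins acetyl-CoA to oxaloacetate, had log2 signals of 10.89 (control), 10.46 (24 h), 10.77 (36 h), 10.71 and 10.65 (48 h) and 10.86 and 10.93 (72 h). It lay within 0.25 of the control on all toxin arrays but that of 24 h. The 48 h difference was -0.21 ± 0.06 (limma adjusted p = 0.245).

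Isocitrate dehydrogenase exists as an NADP-linked enzyme, Idh2, and an NAD-linked one built of Idh3a, Idh3b and Idh3g. The log2 signal of Idh2 was 10.02 (control), 9.23 (24 h), 9.34 (36 h), 9.18 and 9.11 (48 h) and 9.34 and 9.57 (72 h). All toxin arrays lay below the control, with differences of -0.88 ± 0.13 at 48 h (adjusted p = 0.131) and -0.56 ± 0.13 at 72 h (adjusted p = 0.197). Idh3g, a regulatory subunit, had 10.58 (control), 9.68 (24 h), 9.83 (36 h), 9.75 and 9.65 (48 h) and 9.89 and 10.02 (72 h). It too stayed below the control throughout, by -0.89 ± 0.09 at 48 h and -0.63 ± 0.09 at 72 h, with adjusted p of 0.121 and 0.153. Idh3g is X-linked, and on the 24 h array, which shared the control's Xist pattern, it was at -0.90. Idh3a, the catalytic subunit, had 9.95 (control), 9.43 (24 h), 9.89 (36 h), 9.56 and 9.78 (48 h) and 9.99 and 9.99 (72 h). Both 72 h arrays were just above the control and both 48 h arrays below it. Idh3b, the other regulatory subunit, had 10.06 (control), 9.47 (24 h), 9.81 (36 h), 9.59 and 9.67 (48 h) and 9.88 and 10.08 (72 h). Its second 72 h array stood at the control's level, so the 3 subunits of the enzyme ended 72 h at different distances from the control: 0.04 ± 0.12 for Idh3a, -0.08 ± 0.12 for Idh3b and -0.63 ± 0.09 for Idh3g.

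The 2-oxoglutarate dehydrogenase complex is made of Ogdh, Dlst and Dld, and Dld also serves the pyruvate dehydrogenase complex. Ogdh, the subunit that decarboxylates 2-oxoglutarate, had 11.39 (control), 11.06 (24 h), 11.25 (36 h), 11.24 and 11.20 (48 h) and 11.33 and 11.45 (72 h). The 24 h array was lowest and the 72 h pair surrounds the control. Dlst, the succinyl transferase, had 9.42 (control), 9.10 (24 h), 9.32 (36 h), 8.92 and 9.32 (48 h) and 9.46 and 9.62 (72 h). Its 48 h arrays stood apart, with only the first well below the control, and its 48 h difference was -0.30 ± 0.22. Dld, the shared flavoprotein, had 10.76 (control), 10.11 (24 h), 10.32 (36 h), 10.12 and 10.26 (48 h) and 10.44 and 10.55 (72 h). It was below the control on all 6 arrays, by -0.58 ± 0.10 at 48 h and -0.27 ± 0.10 at 72 h (adjusted p = 0.142 and 0.321).

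Succinyl-CoA synthetase pairs the alpha subunit Suclg1 with the GTP-forming Suclg2 or the ATP-forming Sucla2. Suclg2 had 10.19 (control), 9.51 (24 h), 9.53 (36 h), 9.54 and 9.46 (48 h) and 9.54 and 9.57 (72 h). Its differences from the control, -0.63 to -0.73, varied little between toxin arrays, and its slope over recovery was 0.02 ± 0.03 per 24 h. It was the TCA cycle gene with the lowest p at 48 h (-0.69 ± 0.06, adjusted p = 0.120) and at 72 h (-0.64 ± 0.06, adjusted p = 0.146), and its second, dimmer probe set had 5.85 on the control and 5.08 to 5.32 on the toxin arrays. Sucla2 had 8.90 (control), 8.16 (24 h), 8.39 (36 h), 8.16 and 8.34 (48 h) and 8.50 and 8.72 (72 h). Unlike Suclg2 it stood higher on both 72 h arrays than on both 48 h arrays, by 0.36 ± 0.12, though the subunits were not tested against each other. Suclg1 had 8.05 (control), 7.98 (24 h), 8.20 (36 h), 7.79 and 7.98 (48 h) and 8.33 and 8.32 (72 h). It was above the control at 36 h and on both 72 h arrays, by 0.28 ± 0.10 at 72 h (adjusted p = 0.319).

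The last steps turn fumarate to malate and malate to oxaloacetate. Fh1, fumarase, had 9.46 (control), 9.08 (24 h), 9.27 (36 h), 9.10 and 9.04 (48 h) and 9.40 and 9.50 (72 h). Both 48 h arrays were below and the 72 h pair surrounded the control; the difference of 0.38 ± 0.06 between 48 h and 72 h had the lowest p of the TCA cycle enzymes in that comparison (unadjusted p = 0.00713, adjusted p = 0.705). Mdh2, the mitochondrial malate dehydrogenase, had 10.74 (control), 10.46 (24 h), 10.72 (36 h), 10.48 and 10.43 (48 h) and 10.79 and 11.00 (72 h). Its 72 h arrays were above the control and above both 48 h arrays, by 0.44 ± 0.09. Mdh1, the cytosolic malate dehydrogenase of the malate-aspartate shuttle, had 11.07 (control), 10.13 (24 h), 10.55 (36 h), 10.17 and 10.44 (48 h) and 10.66 and 10.96 (72 h). It was the TCA cycle gene furthest from the control at 24 h, with 52.2% of the control's signal, and the one with the steepest slope, 0.30 ± 0.11 per 24 h (adjusted p = 0.543).

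Succinate dehydrogenase oxidises succinate and is also complex II of the respiratory chain. Its flavoprotein Sdha had 10.51 (control), 9.77 (24 h), 9.97 (36 h), 9.83 and 9.83 (48 h) and 9.99 and 10.22 (72 h). All toxin arrays were below the control, by -0.68 ± 0.12 at 48 h and -0.40 ± 0.12 at 72 h (adjusted p = 0.144 and 0.250). Sdhb, the iron-sulfur subunit, had 8.53 (control), 8.19 (24 h), 8.44 (36 h), 8.12 and 8.23 (48 h) and 8.71 and 8.88 (72 h). It was below the control through 48 h and above it on both 72 h arrays, and its 72 h minus 48 h difference of 0.62 ± 0.09 had an unadjusted p of 0.00466 (adjusted p = 0.705). Sdhc, a membrane anchor, had 9.07 (control), 8.61 (24 h), 8.91 (36 h), 8.69 and 8.80 (48 h) and 9.17 and 9.37 (72 h). It took the same course, with 0.52 ± 0.10 between 48 h and 72 h. Sdhd, the other anchor, had 9.45 (control), 9.44 (24 h), 9.49 (36 h), 9.47 and 9.39 (48 h) and 9.55 and 9.65 (72 h). It was the flat one of the 4, within 0.06 of the control through 48 h and 0.16 ± 0.08 above it at 72 h. Thus the flavoprotein was at -0.40 from the control at 72 h while the other subunits were at 0.16 to 0.26.

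**Figure D3:**
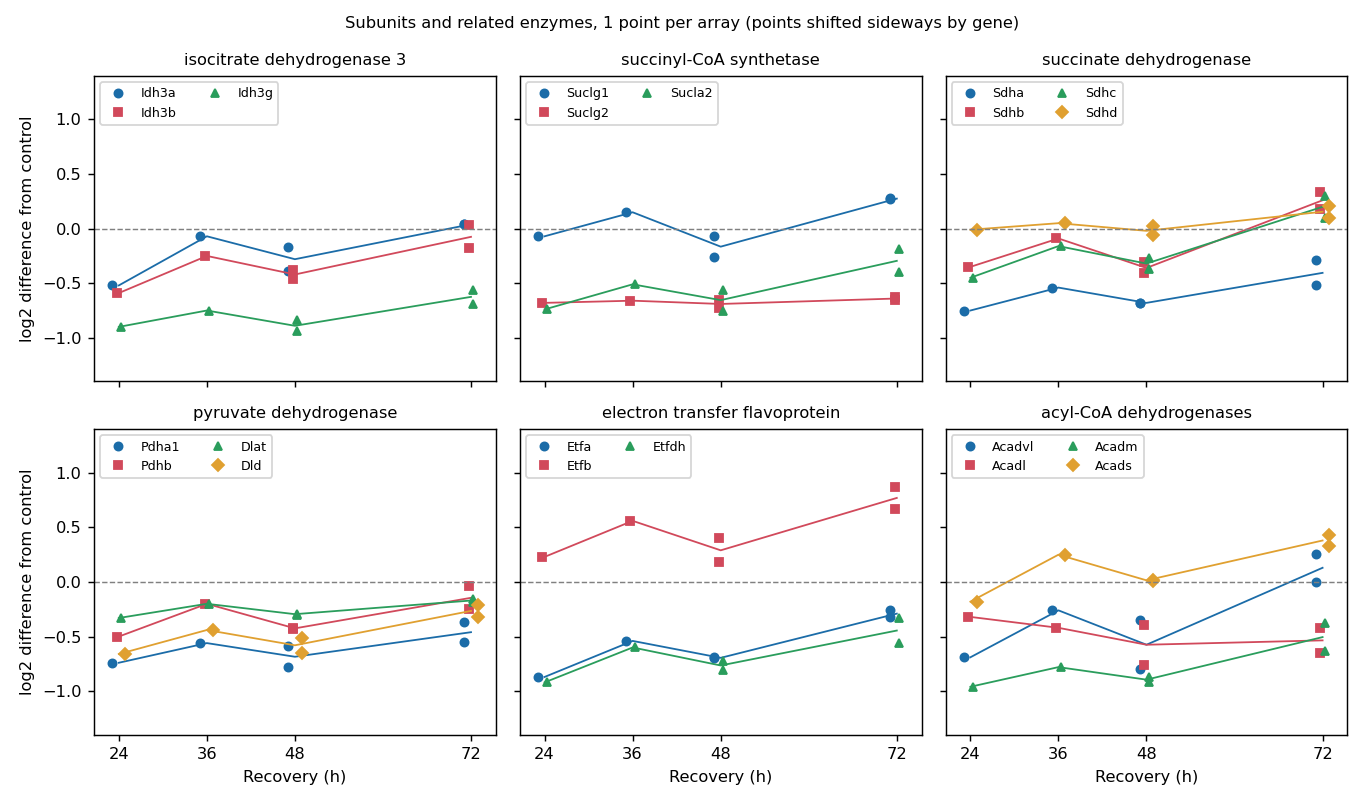
Log2 difference from the control against hours of recovery for subunits of single complexes and related enzymes; points are arrays, shifted sideways by gene, and lines join group means. Within isocitrate dehydrogenase 3, succinyl-CoA synthetase and succinate dehydrogenase the subunits run apart: Idh3g, Suclg2 and Sdha stay below the control on every array, while Idh3a, Suclg1, Sdhb, Sdhc and Sdhd are above it on both 72 h arrays.

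In pyruvate entry all 6 measured genes were below the control on all 6 toxin arrays, against 22.6% of all genes. It was the only such step, though with repeated quantile normalisation Pdhb was not below the control on all 6 arrays. Mpc1, a subunit of the carrier that brings pyruvate into the mitochondrion, had 11.28 (control), 10.13 (24 h), 10.43 (36 h), 10.27 and 10.02 (48 h) and 10.48 and 10.63 (72 h). By this probe set it was the member furthest from the control at 24 h (45.3% of the control's signal) and at 48 h, where the difference was -1.13 ± 0.15 (adjusted p = 0.123), and it was at -0.72 ± 0.15 at 72 h. A second, dimmer probe set of Mpc1 had 6.89 on the control and 6.42 to 6.60 on the toxin arrays. The mean of both gave -0.72 at 48 h, nearer to the control than Idh3g, Acadm, Idh2, Echs1, Mdh1 and Etfdh.

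In the pyruvate dehydrogenase complex, the E1 alpha subunit Pdha1 had 10.55 (control), 9.81 (24 h), 9.99 (36 h), 9.96 and 9.77 (48 h) and 10.00 and 10.18 (72 h). Every toxin array was below the control, by -0.69 ± 0.13 at 48 h and -0.46 ± 0.13 at 72 h (adjusted p = 0.159 and 0.250). Pdha1 is X-linked, and its 24 h value, on the array with the control's Xist pattern, was -0.74. The E1 beta subunit Pdhb had 10.24 (control), 9.74 (24 h), 10.04 (36 h), 9.82 and 9.82 (48 h) and 10.00 and 10.20 (72 h), with its second 72 h array close to the control. Dlat, the acetyl transferase, had 8.58 (control), 8.25 (24 h), 8.38 (36 h), 8.28 and 8.29 (48 h) and 8.41 and 8.40 (72 h). Its differences were small but even, -0.29 ± 0.05 at 48 h and -0.17 ± 0.05 at 72 h.

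Pdk2 and Pdk4 are kinases that switch the pyruvate dehydrogenase complex off by phosphorylating Pdha1, Pdk4 being the one induced by fasting. Pdk2 had 8.53 (control), 7.72 (24 h), 7.87 (36 h), 7.77 and 7.97 (48 h) and 8.07 and 8.25 (72 h). It followed the enzyme genes, with -0.65 ± 0.14 at 48 h and a slope of 0.22 ± 0.06 per 24 h. Pdk4 had 7.84 (control), 7.35 (24 h), 7.37 (36 h), 7.60 and 7.43 (48 h) and 7.07 and 7.28 (72 h). It ran the other way: both 72 h arrays lay below both 48 h arrays, by -0.34 ± 0.12 (unadjusted p = 0.0559, adjusted p = 0.706), and its 72 h difference from the control was -0.67 ± 0.14 (adjusted p = 0.187).

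In fatty acid oxidation both 48 h arrays were below the control for 13 of 17 genes and both 72 h arrays for 12. These compare with 34.4% and 33.9% of all genes. Fatty acids enter through the carnitine shuttle, whose 3 genes differed in their course. Cpt1a, the outer-membrane carnitine palmitoyltransferase that sets the rate of entry, had 9.69 (control), 9.13 (24 h), 9.45 (36 h), 9.52 and 9.21 (48 h) and 9.23 and 9.42 (72 h). All toxin arrays were lower, but its pairs overlapped and its differences, -0.33 ± 0.18 at 48 h and -0.37 ± 0.18 at 72 h, were about 2 times their errors or less. Slc25a20, the carnitine carrier, ranged from 7.48 to 8.00 with the control at 7.93, both extremes being arrays of 48 h, and was at 7.59 at 24 h. Cpt2, the inner-membrane transferase, ranged from 8.25 to 8.71 with the control at 8.38, and its 48 h difference was 0.04 ± 0.10.

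The acyl-CoA dehydrogenases open each round of beta-oxidation and divide the chain lengths among them. Acadvl, for very long chains, had 8.06 (control), 7.37 (24 h), 7.80 (36 h), 7.26 and 7.71 (48 h) and 8.06 and 8.32 (72 h). It was well below the control at 24 h and on the first 48 h array and at or above it on both 72 h arrays, 0.70 ± 0.21 higher than at 48 h, the largest such difference of the 41 genes (unadjusted p = 0.0412, adjusted p = 0.705). Acadl, for long chains, had 10.55 (control), 10.23 (24 h), 10.13 (36 h), 10.16 and 9.79 (48 h) and 9.90 and 10.13 (72 h). It was below the control throughout and stood no nearer to it at 72 h, with a slope of -0.09 ± 0.08 per 24 h. Acadm, for medium chains, had 10.63 (control), 9.66 (24 h), 9.85 (36 h), 9.75 and 9.71 (48 h) and 10.00 and 10.24 (72 h). It had 51.2% of the control's signal at 24 h, and its differences were -0.89 ± 0.13 at 48 h and -0.50 ± 0.13 at 72 h (adjusted p = 0.129 and 0.218). It was the furthest of the 4 dehydrogenases from the control at 24 h and 48 h, while at 72 h Acadl was at -0.54 ± 0.22. Acads, for short chains, had 7.05 (control), 6.87 (24 h), 7.30 (36 h), 7.06 and 7.07 (48 h) and 7.38 and 7.49 (72 h). It was at the control's level at 48 h (0.01 ± 0.07) and above it on both 72 h arrays, by 0.38 ± 0.07 (unadjusted p = 0.0107, adjusted p = 0.168).

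The following steps hydrate, oxidise and cleave the chain. Echs1, the short-chain enoyl-CoA hydratase, had 8.98 (control), 7.86 (24 h), 8.39 (36 h), 7.95 and 8.37 (48 h) and 8.72 and 8.89 (72 h). It had 46.1% of the control's signal at 24 h and was nearly at the control at 72 h (-0.18 ± 0.23), with the steepest slope of the 41 genes, 0.43 ± 0.12 per 24 h (unadjusted p under 0.05, adjusted p = 0.461). Hadh, the short-chain hydroxyacyl-CoA dehydrogenase, had 10.66 (control), 10.23 (24 h), 10.40 (36 h), 10.31 and 10.35 (48 h) and 10.39 and 10.53 (72 h), with differences from the control of -0.43 to -0.12. Hadha, the alpha subunit of the trifunctional protein that handles long chains, stayed between 10.80 and 10.91, with the control the highest array. Hadhb, its beta subunit, had 4.40 (control), 4.39 (24 h), 4.15 (36 h), 4.05 and 3.99 (48 h) and 3.76 and 3.48 (72 h). All of these lie below the array medians of 4.56 to 4.71, in the dim part of the signal range; within that range its slope was -0.38 ± 0.06 per 24 h (unadjusted p = 0.000525, adjusted p = 0.419). Acaa2, the thiolase of the matrix, stayed between 8.04 and 8.25 with the control at 8.19.

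Unsaturated fatty acids need 2 further enzymes, Eci1 and Decr1. Eci1, an enoyl-CoA isomerase, had 8.18 (control), 7.95 (24 h), 7.90 (36 h), 7.63 and 7.78 (48 h) and 8.00 and 8.10 (72 h). It was below the control on all toxin arrays, by -0.47 ± 0.10 at 48 h and -0.12 ± 0.10 at 72 h, though with quantile normalisation again not on every array. Decr1, a dienoyl-CoA reductase, ranged from 6.91 to 7.18 around a control of 7.07.

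Electrons from the dehydrogenases pass to the electron transfer flavoprotein, a pair of Etfa and Etfb, and then to its dehydrogenase Etfdh. Etfa had 9.82 (control), 8.95 (24 h), 9.28 (36 h), 9.13 and 9.13 (48 h) and 9.50 and 9.57 (72 h). It was below the control on every toxin array, with the lowest p of the 41 genes at 48 h (-0.70 ± 0.06, unadjusted p = 0.000938, adjusted p = 0.120). The same held between 48 h and 72 h (0.40 ± 0.05, unadjusted p = 0.00266, adjusted p = 0.705). Etfb had 7.58 (control), 7.81 (24 h), 8.14 (36 h), 7.76 and 7.98 (48 h) and 8.25 and 8.46 (72 h). It lay above the control on all 6 arrays, by 0.29 ± 0.15 at 48 h and 0.77 ± 0.15 at 72 h (unadjusted p = 0.0134, adjusted p = 0.177 at 72 h). Etfdh had 10.08 (control), 9.16 (24 h), 9.48 (36 h), 9.36 and 9.27 (48 h) and 9.52 and 9.75 (72 h). It kept close to Etfa, at -0.77 ± 0.13 at 48 h and -0.45 ± 0.13 at 72 h. The partners of the flavoprotein thus lay on opposite sides of the control at all times and both were higher at 72 h than at 48 h, by 0.40 ± 0.05 for Etfa and 0.48 ± 0.12 for Etfb.

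At unadjusted thresholds, 22 members were lower at 48 h than on the control with p under 0.05, against 11.6% of all genes, and 0 were higher, against 8.16%. At 72 h the counts were 12 lower (10.0% of all genes) and 2 higher, Acads and Etfb (7.93%). The 12 were Idh2, Idh3g, Suclg2, Sdha, Pdha1, Dlat, Pdk4, Mpc1, Acadm, Hadhb, Etfa and Etfdh. Between 48 h and 72 h 18 members were higher (4.27% of all genes) and 1 lower, Hadhb (2.80%). For the slope, which uses the lone 24 h and 36 h arrays and not the control and in which Xist itself had -2.28 per 24 h, 19 were higher (4.22%) and 1 lower, Hadhb (4.47%). These counts moved when single arrays were left out. Without either array of 48 h, fewer members passed at 48 h, at 72 h and between them, while more genes passed over all. The members then stood out less from all genes. Between 48 h and 72 h the same held without either 72 h array. These refits leave 1 array at a time, so their counts are not given. In either direction, the slope count of 20 members was 4 without the 24 h array and 27 without the 36 h array. Over all genes the count of 1929 was then 1530 and 2206. Without either 72 h array the slope count was lower, both among the members and over all genes. The 48 h, 72 h and 72 h minus 48 h comparisons share arrays, so their counts are not separate evidence.

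Both 48 h arrays were below the control and both 72 h arrays above it for 8 members, against 2.45% of all genes: Idh3a, Dlst, Suclg1, Mdh2, Sdhb, Sdhc, Acadvl and Acaa2. With quantile normalisation again there were 6, and Idh3a, Dlst, Suclg1 and Acaa2 left while Cs and Fh1 entered. At the other end, Suclg2, Cpt1a, Slc25a20, Acadl and Hadha differed between 48 h and 72 h by no more than 0.05 in either direction.

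**Figure D4:**
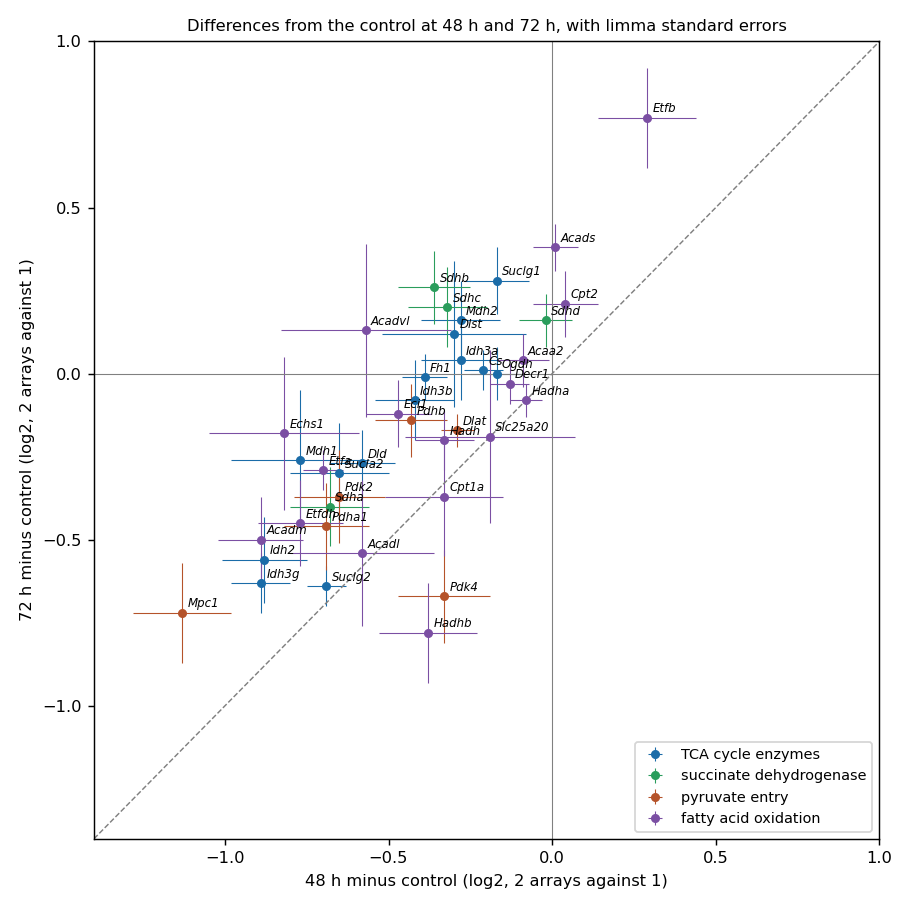
Log2 difference from the control at 72 h against that at 48 h for 41 genes, coloured by pathway step, with limma standard errors as bars; the dashed line marks equal differences and both axes share the single control array. Most genes lie above the line, Etfb is alone at upper right, and Pdk4 and Hadhb lie clearly below the line.

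Genes of neighbouring pathways, from lists chosen with earlier results of these data known, gave a background for the members. Of 29 other TCA and pyruvate genes 21 were lower at 48 h, against 10756 of all 22180 genes. The medians were -0.15 and -0.19 on the arrays of 48 h. At an unadjusted limma p under 0.05, 6 were lower and 3 higher (20.7% and 10.3%, against 11.6% and 8.16% of all genes). Me1, the cytosolic malic enzyme that makes NADPH, was above the control on every array (0.50, 0.91, 0.96, 0.87, 0.71 and 0.51 in order of time). Me3, a mitochondrial malic enzyme, was at -1.51, -1.59, -1.70, -1.05, -1.05 and -0.28 on the same arrays. Me2, the other mitochondrial malic enzyme, named here after its values were seen, lay around the control at -0.29, 0.32, 0.13, -0.16, 0.18 and 0.19. Glud1, glutamate dehydrogenase, which feeds the cycle with 2-oxoglutarate, was at -0.85 ± 0.12 at 48 h and -0.82 at 72 h, and Acly, which splits citrate in the cytosol, at -0.65 ± 0.09 and -0.27.

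Other mitochondrial acyl-CoA genes, many of which serve the breakdown of branched-chain amino acids, lay further from the control than the members. Of 20 measured, 18 were lower at 48 h, against 10756 of all 22180 genes. Of the 20, 11 were lower with an unadjusted limma p under 0.05 (55%), against 11.6% of all genes. The medians ran -0.75, -0.56, -0.60, -0.63, -0.50 and -0.26 from 24 h to the second 72 h array. Acadsb, the short/branched-chain acyl-CoA dehydrogenase, had differences of -2.78, -2.27, -2.35, -2.14, -2.03 and -1.30. Ivd, isovaleryl-CoA dehydrogenase of leucine breakdown, had -1.63, -1.35, -1.52, -1.52, -1.15 and -1.01 (-1.52 ± 0.08 at 48 h, adjusted p = 0.120). Mmut, methylmalonyl-CoA mutase, and Pccb, a subunit of propionyl-CoA carboxylase, which work in sequence to bring propionyl units into the cycle, were at -1.55 ± 0.17 and -1.31 ± 0.13 at 48 h. All 4 were below the control on every toxin array.

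The list of ketone body genes, which also holds the acetyl-CoA synthetases Acss1 and Acss2, had 4 of 5 below the control on both 48 h arrays, against 34.4% of all genes. Oxct1, the enzyme that activates ketone bodies for use as fuel, had differences of -2.44 (24 h), -1.91 (36 h), -2.17 and -2.01 (48 h) and -1.37 and -0.86 (72 h). Bdh1, which interconverts the ketone bodies, was at -0.50 ± 0.10 at 48 h and 0.06 at 72 h. Acss1 and Acss2 were at -0.67 ± 0.21 and -0.24 ± 0.24 at 48 h. Peroxisomal beta-oxidation, in which chains too long for the mitochondrion are shortened, lay at the level of all genes. The medians of 14 genes ran from -0.05 to 0.02. At 48 h Scp2, a thiolase and lipid carrier, was at -0.73 ± 0.11 and Pex7 at -0.61 ± 0.20. Crot was then at 0.32 ± 0.35 and Abcd2 at -0.58 ± 0.08. The log2 signals of Abcd2, 3.27 to 3.91, all lay under the array medians.

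Of 14 regulators of mitochondrial metabolism 2 were lower (14.3%) and 1 higher (7.14%) at 48 h with an unadjusted p under 0.05, near the 11.6% and 8.16% of all genes, and the medians ran from -0.06 to 0.10. Perm1, a muscle-type regulator of mitochondrial genes, was at -1.65 ± 0.14 at 48 h, and Esrrb, a member of the ERR family, at -1.20 ± 0.24; both have toxin-array log2 signals under the array medians. Ppara, a receptor for fatty acids, was at -0.33 ± 0.15 and Pprc1, a coactivator, at 0.39 ± 0.12. The other ERR genes and the coactivator gene Ppargc1a lay nearer the control at 48 h: Esrra at 0.25 ± 0.10, Esrrg at 0.03 ± 0.24 and Ppargc1a at 0.03 ± 0.16.

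**Figure D5:**
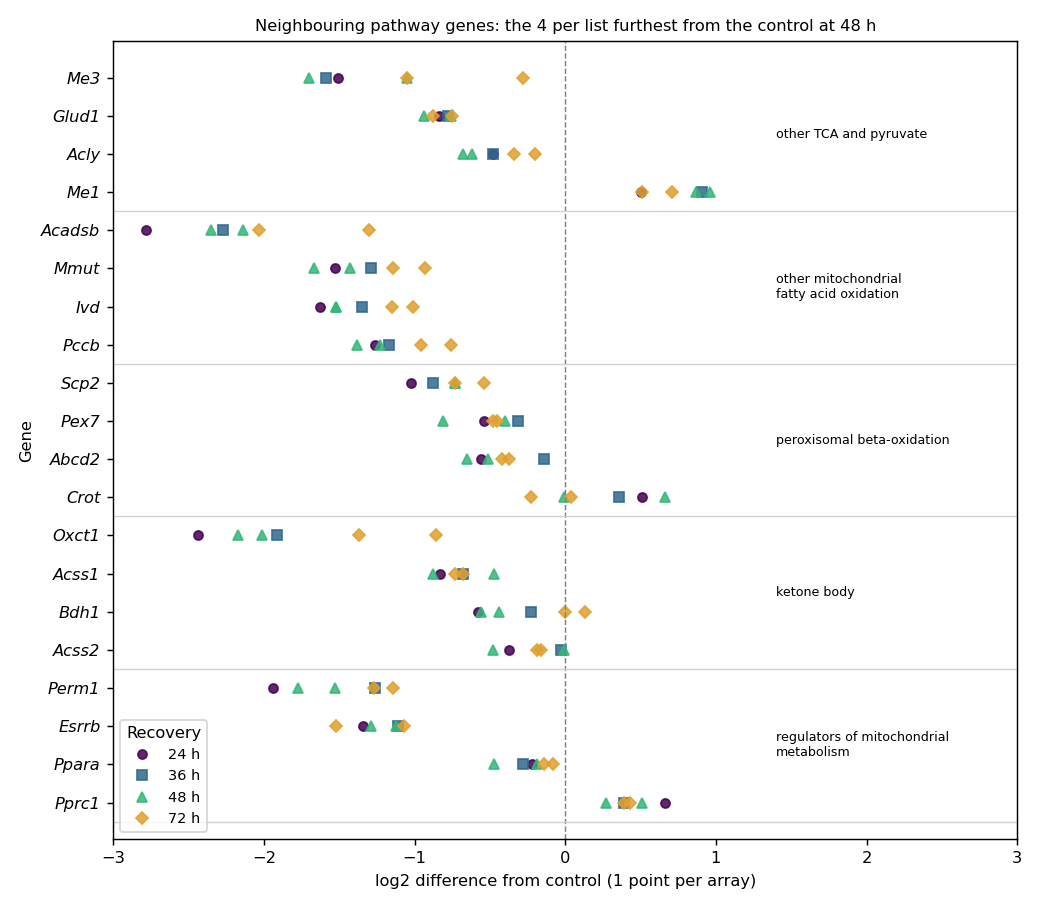
Log2 difference from the control on each toxin array (points, by hours of recovery) for the 4 genes of each neighbouring list that were furthest from the control at 48 h. Acadsb, Oxct1, Mmut, Ivd and Perm1 lie left of the control on all 6 arrays, and Me1 and Pprc1 lie right of it.

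Markers of other cells are set beside the members as summed linear signal, in percent of the control from 24 h to the second 72 h array. The members gave 68.2, 79.3, 72.0, 71.5, 82.2 and 91.0%. The 12 parietal cell markers gave 41.9, 68.8, 53.3, 69.8, 77.9 and 91.8%. Such a sum weighs the brightest genes most, here Atp4a, Atp4b and Car2, with control log2 signals of 12.78, 12.94 and 12.04. On the second 72 h array the 12 markers ran from -3.72 to 0.57 on the log2 scale, with a median of -0.20. Of these, 10 were below the control on all 6 toxin arrays, against 22.6% of all genes. Slc26a7, a parietal chloride-bicarbonate exchanger, lay furthest from the control, at -3.38 to -4.40 on the log2 scale. The exceptions were Car2, at 0.04, 0.12, 0.21, 0.00, 0.03 and -0.08, and Ckb, at 0.57 on the second 72 h array. The part of the parietal markers in the members' differences was not tested. Smooth muscle markers gave 87.0 to 107%, endothelial markers 39.6 to 50.7% and leukocyte markers 110 to 151%. Chief cell markers gave 79.3, 58.1, 74.7, 78.1, 74.9 and 68.9%. All 5 were below the control on both 48 h arrays (34.4% of all genes) and both 72 h arrays (33.9%). Of these, Pgc was nearly at the control, at -0.05, -0.01, -0.02 and -0.05 on those arrays. Proliferation markers gave 356, 270, 291, 263, 207 and 166%. Mucous neck cell markers gave 73.9 to 142%, surface pit cell markers 103 to 109% and adipocyte markers 87.7 to 139%. The mucous neck list was split: A4gnt was below the control on all 6 toxin arrays and Cftr and Gkn3 above it on all 6. Muc6 and Tff2 lay on both sides. Among the adipocyte markers only Cidec had log2 signals well above the array medians. The part of the markers other than parietal was not tested either. By step, pyruvate entry gave 57.6, 67.8, 62.4, 57.6, 68.4 and 76.5% and succinate dehydrogenase 73.3, 83.2, 75.5, 75.8, 90.3 and 102%.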

How the data were processed

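Total RNA was labelled as biotinylated cDNA and hybridised to 1 array per sample. The authors' deposited table of 41345 probe sets by 7 arrays is log2 signal from RMA in Partek, per the submitters' processing notes. Versions and the array's genome build were not given in these sources. RMA aligns the arrays' signal distributions, so differences are relative to all probe sets. Array medians were 4.56 to 4.71, and 0 sample columns went unused. Arrays have no read depth; their number limits the precision.

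Probe sets with 1 gene in the platform annotation (23521; 1814 had several and 16010 none) were kept, with the highest mean where a gene had several (1082 genes). Limma 3.58.1 in R 4.3.3 (lmFit, eBayes, two-sided) was fitted to all 22180 genes: group means over 7 arrays (2 residual and 1.15 prior degrees of freedom) and a slope per 24 h over the 6 toxin arrays (4 and 1.83). The single 24 h and 36 h arrays got values and counts, with no test. The labels do not say that the samples of a group came from separate animals beyond calling them independent, so p-values measure only the spread between these arrays. Replicate numbers were not used to pair arrays; across genes, as a description, within-pair differences (48 h, 72 h) correlated at -0.13. In 11.2% of genes at 48 h and 10.7% at 72 h the pair held equal values.

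The members and lists were chosen with earlier results of these data known; all members are named, up to 4 genes of each neighbouring list by size of the 48 h difference, and up to 4 markers per list. Esrra, Esrrg and Ppargc1a were added by name. The code was tested on simulated data. Alternatives were another normalisation, subtraction of array medians, a filter on dim genes, the mean of probe sets, an intensity trend, leaving out arrays, and replicate blocks.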

Additional observations from a re-analysis of the deposited data

Results flagged for a closer look

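8 genes were below the control on both arrays of 48 h and above it on both arrays of 72 h, so that every array of either time lay on its own side of the control; across all genes 2.45% did so. The 72 h minus 48 h difference was 0.62 for Sdhb, 0.52 for Sdhc, 0.44 for Suclg1, 0.44 for Mdh2, 0.32 for Idh3a, 0.42 for Dlst, 0.70 for Acadvl and 0.13 for Acaa2. In limma none of these passed, with adjusted p from 0.705 to 0.757. The first 72 h array of Acadvl equalled the control to 2 decimals (8.06).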

How the results depend on the processing

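Of 1636 values of single members under the alternatives, 1609 kept their direction, 27 reversed, and 0 passed the threshold. With quantile normalisation again, limma called 12 genes at 48 h and 6 at 72 h, and with array medians subtracted 77 and 13, with 0 members among them; the cause was not tested. Quantile normalisation again gave member medians of -0.28 (48 h), -0.09 (72 h), -0.32 (24 h) and -0.17 (36 h; -0.23 with array medians subtracted) and 5 members lower at 72 h than at 48 h. It reversed Sdhd (0.086), Hadha (0.019) and Acaa2 (0.036) at 48 h; Idh3b (0.031), Ogdh (-0.027), Fh1 (0.048), Hadha (0.05) and Decr1 (0.012) at 72 h; Slc25a20 (-0.035) and Acadl (-0.039) between 48 h and 72 h; and the slope of Suclg2 (-0.006).

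Leaving out 1 array of 48 h or 72 h at a time gave member medians of -0.41 to -0.38 at 48 h, -0.19 to -0.09 at 72 h and 0.20 to 0.39 between them, with 2 to 5 members lower at 72 h than at 48 h. Values then spanned 0 at 48 h for Cpt2 (-0.045 to 0.13), Sdhd (-0.061 to 0.025) and Slc25a20 (-0.45 to 0.069), at 72 h for Idh3b (-0.18 to 0.026), Fh1 (-0.058 to 0.04), Cs (-0.028 to 0.047) and Ogdh (-0.06 to 0.062), and between them for Cpt1a (-0.19 to 0.11), Slc25a20 (-0.26 to 0.26) and Acadl (-0.14 to 0.22). Without the lone 24 h array 8 members had a negative slope, among them Cpt1a (-0.068), Cpt2 (-0.00013), Slc25a20 (-0.074) and Hadha (-0.017).

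With the replicate number as a block, limma called 0 genes between 72 h and 48 h, the members' median was 0.31 and 18 members had an unadjusted p under 0.05, against 19 without it; the samples share only a number. With the numbers crossed, chosen after seeing the data, 0 genes were called and 15 members had an unadjusted p under 0.05. The filter on dim genes left 40 of the 41 members, without Hadhb. At 48 h against the control, 3042 of the 11090 genes it left had an unadjusted limma p under 0.05, against 4375 of all 22180. Of the 40 members 21 did. The lowest adjusted p of a member ran from 0.0714 to 0.24 at 48 h over all settings. With 1 control array and pairs at 2 times, a true change of the sizes seen here could go uncalled.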
